A study of Homo sapiens with 4 samples.

Results

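The genes described here are 8 genes of the extrinsic apoptosis pathway: the death receptor genes FAS, TNFRSF10A and TNFRSF10B, the adaptor gene FADD, the caspase-8 regulator gene CFLAR, the caspase genes CASP8 and CASP9, and the caspase inhibitor gene XIAP. They were taken as a named list and found by Ensembl identifier matched to gene symbol, which gave all 8 among the 64252 genes of the count table. RNA of cells labelled NB4 was sequenced after 24 h with 8 µM dBET1 (2 libraries) or with DMSO, the solvent of the compound, for the same time (2 libraries). NB4 is a line of acute promyelocytic leukemia with the PML-RARa fusion. dBET1 is a degrader: one end binds the bromodomains of BET proteins, the other binds CRBN, the substrate receptor of an E3 ubiquitin ligase, and the proteins so joined are marked for the proteasome. The study asked how the compound acts on leukemia cells, including on their apoptosis, and the comparison below asks how RNA of the death receptor pathway differed between treated and control libraries.

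Death receptors are membrane proteins of the TNF receptor superfamily that carry a death domain inside the cell. When FAS ligand or TRAIL (the product of TNFSF10) binds, the receptors recruit FADD, which gathers caspase-8, and neighbouring caspase-8 molecules activate each other in this complex. CFLAR (c-FLIP) resembles caspase-8 without its catalytic activity and competes for places in the complex. Active caspase-8 cleaves effector caspases directly or cleaves BID, which leads to release of cytochrome c from mitochondria, assembly of the apoptosome with APAF1 and activation of caspase-9. XIAP binds and inhibits caspase-9 and the effector caspases.

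Sequence before the transcription start is given for 3 of these genes, to set the promoter of the adaptor gene that fell (FADD) beside those of a caspase gene and an inhibitor gene that rose (CASP8 and XIAP), with values further on. RefSeq windows of 250 bases before the start (GRCh38.p14) were read for FAS, FADD, CFLAR, CASP8, CASP9 and XIAP, at the RefSeq start nearest to that of the canonical transcript. Only the longest stretch of a window in no exon of GENCODE release 44 is printed, 5′ to 3′ on the strand of the gene. The stretches are chr11:70203046-70203295 (plus strand) for FADD, chr2:201260286-201260499 (plus strand) for CASP8 and chrX:123859906-123860052 (plus strand) for XIAP. The annotated gene begins at 201233443 for CASP8 and at 123859712 for XIAP, so these stretches lie within the gene, after the start of other transcripts. The FADD stretch lies before its gene. The windows of FAS, CFLAR and CASP9 also lie within their genes. Capitals mark the GC box (GGGCGG or, on the other strand, CCGCCC) in FADD and the AP-1 motif (TGACTCA or TGAGTCA) in CASP8.
FADD: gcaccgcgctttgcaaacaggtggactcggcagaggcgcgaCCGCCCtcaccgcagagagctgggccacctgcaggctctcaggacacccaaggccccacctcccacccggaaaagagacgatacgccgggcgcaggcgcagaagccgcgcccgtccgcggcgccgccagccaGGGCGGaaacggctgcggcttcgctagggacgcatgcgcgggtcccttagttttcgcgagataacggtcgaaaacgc
CASP8: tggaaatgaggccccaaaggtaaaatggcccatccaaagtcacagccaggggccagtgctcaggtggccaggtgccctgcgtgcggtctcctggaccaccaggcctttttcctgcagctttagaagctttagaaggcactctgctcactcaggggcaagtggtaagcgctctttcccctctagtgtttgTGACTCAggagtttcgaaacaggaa
XIAP: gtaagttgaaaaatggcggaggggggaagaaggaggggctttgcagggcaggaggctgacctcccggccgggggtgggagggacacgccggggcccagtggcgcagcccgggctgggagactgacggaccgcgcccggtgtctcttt

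Over the whole windows of 250 bases, FADD and XIAP were rich in CpG dinucleotides and CASP8 was not. FADD had a GC content of 68.8% with 32 CpG sites, XIAP 69.6% with 23 and CASP8 55.6% with 5, where the medians over all 35116 such windows were 58.0% and 11. FADD had 2 GC box matches and XIAP and CASP8 had 0, while 42.6% of all windows held at least 1. CASP9 had the highest GC content of the 6 windows, 77.6%, with 8 GC box matches, some of which overlap each other. CFLAR and FAS had 1 GC box match each. The RefSeq start used for CFLAR lay 2552 bases from the canonical start, unlike those of the other genes, which lay at it. The only AP-1 match was in CASP8, against 4.2% of all windows. None of the 6 windows held an E-box (CACGTG, in 6.34% of all windows) or a TATA box (TATAAA or TTTATA, in 10.7%). A match is a description of the letters, and binding at these windows was not measured.

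The counts summed to between 28019956 and 34685645 per library, and 17971 genes passed the filter on low counts. The libraries of a group are numbered as replicates 1 and 2, but nothing says whether they came from separate cultures, so p-values measure the spread between these libraries, which may be technical. The label was checked against marker genes. Genes of the primary granules, which mark promyelocytes (AZU1, CTSG, ELANE, MPO and PRTN3), summed to 17 and 15 counts in the controls and to 55 and 25 after dBET1, with ELANE and CTSG at 0 in all 4 libraries. A list of 6 erythroid genes summed to between 6046 and 6590 CPM (counts scaled by the TMM-normalized library size) with DMSO and between 3851 and 3877 with dBET1, and HBG1 and HBG2 in it are near-identical. A list of 7 granulocytic genes, 2 of them at 0, summed to between 12.3 and 14.7 CPM over all 4 libraries. A list of 5 lymphoid genes, 1 of them at 0, lay between 30.0 and 34.7 CPM with DMSO and between 13.5 and 14.0 with dBET1. In the granulocytic list CD33, a surface marker of the myeloid lineage, had between 323 and 335 counts per library and made up most of the sum. The granule genes that define the labelled cell type were thus close to absent while CD33 was detected, and the libraries are named below as labelled. In bulk RNA a lower level in fewer cells and less RNA per cell cannot be told apart.

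After dBET1, RNA of the TRAIL receptor genes moved in opposite directions: TNFRSF10A fell to 0.521 times its level with DMSO, and TNFRSF10B rose 1.38-fold. FADD fell to 0.788 times its level with DMSO, and CFLAR, CASP8 and XIAP rose by between 1.30-fold and 1.35-fold. CASP9 was 1.20-fold higher without passing the test, and FAS was close to absent in all 4 libraries. The quasi-likelihood test of edgeR, at a limit of 0.05 on p adjusted after Benjamini and Hochberg over all genes, called 4 of the 7 genes that could be tested higher and 2 lower. Of all genes tested, 28.0% were higher and 27.6% were lower by the same rule. None of the 7 passed the further limit of an absolute log2 fold change above 1, which 25.4% of all genes passed with that adjusted p. The CPM ranges of the groups did not overlap for 7 of the 7 genes, as for 79.3% of all genes. The median log2 fold change of the 7 genes was 0.38, beside 0.048 for all genes tested, and 0.59 beside 0.26 with total counts in place of TMM factors. The erythroid and lymphoid sums given above were lower in the same libraries, and their part in these results was not tested.

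**Figure D1:**
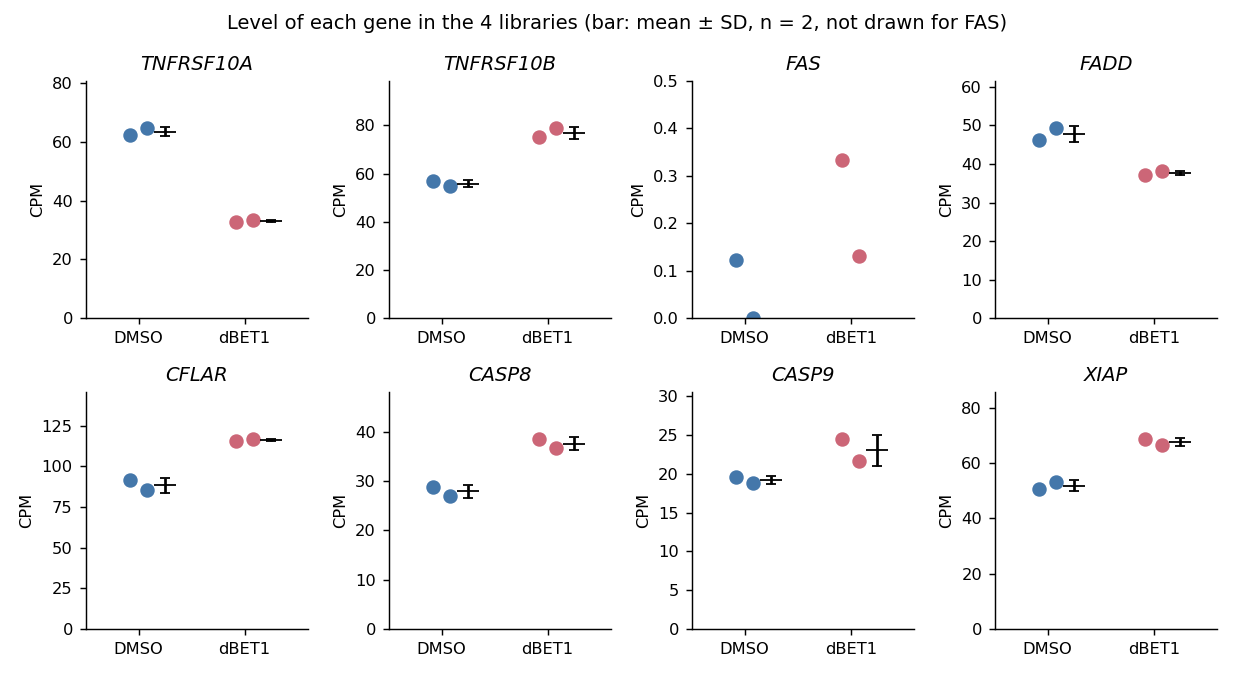
CPM of each of the 8 genes (vertical axes, from 0) in the DMSO libraries (blue) and the dBET1 libraries (red), 1 point per library, with the mean and SD of the group beside the points except for FAS. The TNFRSF10A points fall from between 62.3 and 64.5 to between 32.8 and 33.2 CPM, while the TNFRSF10B points rise from between 54.7 and 56.7 to between 75.0 and 78.7 CPM.

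TNFRSF10A encodes the TRAIL receptor DR4 (ENSG00000104689, hg38 chromosome 8, 23190452 to 23225102, minus strand). Its level was 62.3 and 64.5 CPM with DMSO and 32.8 and 33.2 CPM with dBET1. Both treated libraries lay at about the same level, far below both controls. The mean went from 63.4 ± 1.54 to 33.0 ± 0.304 CPM (SD, n = 2 each), a log2 fold change of -0.94 (SE 0.0875, edgeR adjusted p = 9.165e-05). Of the 8 genes it had the smallest p, and it kept its call in all 11 alternative settings, in which the log2 fold change lay between -0.996 and -0.73. Among all genes tested, those whose centred log2 CPM ran closest to it over the 4 libraries were DFFB, TGDS and NIFK. The root mean square differences were 0.00662, 0.00944 and 0.00948, and the log2 fold changes -0.94, -0.94 and -0.92. DFFB encodes the caspase-activated DNase of apoptosis. With 2 libraries in each of 2 groups, such likeness largely follows from a similar fold change, and shared regulation was not tested. Exons of TNFRSF10A share 266 bases with TNFRSF10A-DT, an RNA on the other strand with 378, 335, 210 and 236 counts in the same order of libraries (DMSO 1 and 2, dBET1 1 and 2), against 2033, 1812, 984 and 1014 for TNFRSF10A. The strand setting of the counting is not given in the sources used here, so counts from the shared bases may belong to either gene.

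TNFRSF10B encodes the other TRAIL receptor with a death domain, DR5 (ENSG00000120889, chromosome 8, 23020133 to 23069031, minus strand). Its level was 56.7 and 54.7 CPM with DMSO and 75.0 and 78.7 CPM with dBET1. Both treated libraries were above both controls, the reverse of TNFRSF10A. The mean went from 55.7 ± 1.46 to 76.8 ± 2.63 CPM (SD, n = 2 each), a log2 fold change of 0.46 (SE 0.0838, edgeR adjusted p = 0.00237). Without dBET1 replicate 2 the log2 fold change was 0.41 and the edgeR adjusted p was 0.0519, so the call was lost; without dBET1 replicate 1 it was kept (0.49, edgeR adjusted p = 0.0245). Exons of TNFRSF10B share 377 bases with RHOBTB2 on the other strand, which had 319, 288, 439 and 394 counts beside 1851, 1536, 2250 and 2402 for TNFRSF10B.

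Set against each other within a library, the TRAIL receptor counts changed order. Each library held 0.911 and 0.848 counts of TNFRSF10B per count of TNFRSF10A with DMSO, and 2.29 and 2.37 with dBET1. The receptor with fewer counts in both controls was thus the one with more in both treated libraries. The ratio was 2.65 times higher with dBET1, and it does not depend on the normalization between libraries. An exact two-sided permutation test gave p = 0.333, the smallest value that 2 libraries against 2 allow. This ratio was chosen after the values were seen.

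**Figure D2:**
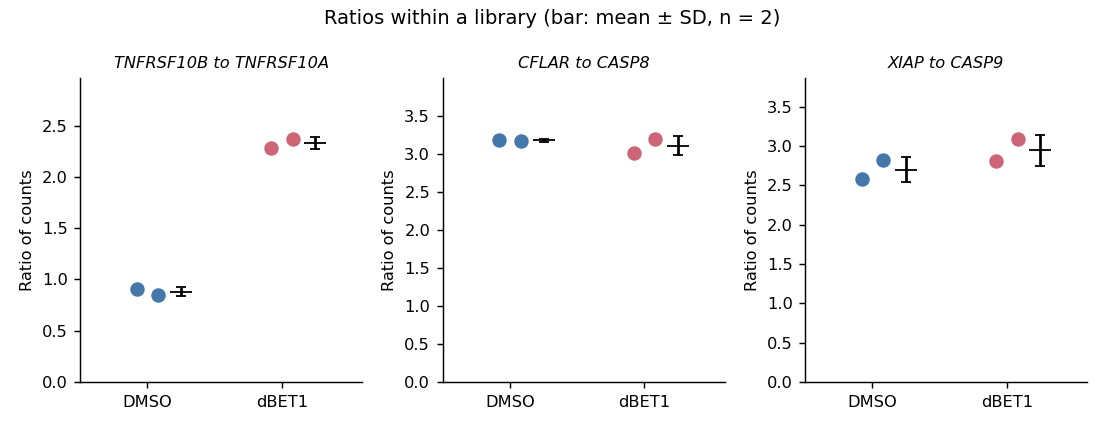
Ratios of the counts of gene pairs within each library (vertical axes, from 0; DMSO blue, dBET1 red), with the mean and SD of each group. The ratio of TNFRSF10B to TNFRSF10A lies below 1 with DMSO (0.848 to 0.911) and above 2 with dBET1 (2.29 to 2.37), while the ratio of CFLAR to CASP8 stays between 3.01 and 3.19.

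FAS, the receptor of FAS ligand (ENSG00000026103, chromosome 10, 88953813 to 89029605), had 4 and 0 counts with DMSO and 10 and 4 with dBET1. These counts were too few to pass the filter, so FAS was not tested in the main comparison, and DMSO replicate 1 had as many counts as dBET1 replicate 2. Without the filter its log2 fold change was 1.73 with an edgeR adjusted p of 0.40. A difference in FAS was therefore not detectable at this depth. The ligand genes were also close to absent: TNFSF10 had between 9 and 11 counts in the 4 libraries, and FASLG, TNF and LTA had at most 2.

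FADD encodes the adaptor that links the receptors to caspase-8 (ENSG00000168040, chromosome 11, 70203296 to 70207390, plus strand). Its level was 46.3 and 49.2 CPM with DMSO and 37.2 and 38.1 CPM with dBET1. Both treated libraries lay below both controls. The mean went from 47.7 ± 2.08 to 37.6 ± 0.599 CPM (SD, n = 2 each), a log2 fold change of -0.34 (SE 0.0911, edgeR adjusted p = 0.0140). Of the 6 calls, that of FADD was lost in the most alternatives, 3 of 11. With total counts in place of TMM factors its log2 fold change was -0.13 (edgeR adjusted p = 0.258), while without dBET1 replicate 1 it was -0.33 (edgeR adjusted p = 0.136) and without dBET1 replicate 2 it was -0.37 (edgeR adjusted p = 0.095).

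CFLAR and CASP8, which encode the competitor and the initiator caspase of the same complex, rose by nearly the same factor. The level of CFLAR (ENSG00000003402, chromosome 2, 201116154 to 201176687, plus strand) was 91.6 and 85.3 CPM with DMSO and 115.9 and 116.8 CPM with dBET1. The level of CASP8 (ENSG00000064012, chromosome 2, 201233443 to 201361836, plus strand) was 28.8 and 27.0 CPM with DMSO and 38.5 and 36.6 CPM with dBET1. For both genes the treated libraries were above both controls. CFLAR went from 88.4 ± 4.48 to 116.4 ± 0.634 CPM (SD, n = 2 each), a log2 fold change of 0.40 (SE 0.0793, edgeR adjusted p = 0.00387). CASP8 went from 27.9 ± 1.28 to 37.6 ± 1.32 CPM (SD, n = 2 each), a log2 fold change of 0.43 (SE 0.101, edgeR adjusted p = 0.00804). Either call was lost when a dBET1 library was left out, while the fold changes stayed about as large. Without dBET1 replicate 1 the log2 fold change was 0.40 for CFLAR (edgeR adjusted p = 0.0531) and 0.39 for CASP8 (edgeR adjusted p = 0.0978), and without dBET1 replicate 2 it was 0.38 (edgeR adjusted p = 0.0664) and 0.45 (edgeR adjusted p = 0.0522). With total counts in place of TMM factors CFLAR was at 0.61. The libraries held 3.18 and 3.16 counts of CFLAR per count of CASP8 with DMSO and 3.01 and 3.19 with dBET1. The treated values enclosed the control values, and the ratio with dBET1 was 0.977 times that with DMSO (exact two-sided permutation p = 1, where 2 against 2 cannot go below 0.333). The counts are per gene, so the long and short protein forms of CFLAR were not told apart.

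CASP9 encodes the initiator caspase of the apoptosome (ENSG00000132906, chromosome 1, 15490832 to 15526534, minus strand). Its level was 19.6 and 18.9 CPM with DMSO and 24.5 and 21.6 CPM with dBET1. The treated libraries were above the controls, but they were also farther apart from each other than the control libraries were. The log2 fold change of 0.26 (SE 0.124) did not pass (edgeR adjusted p = 0.108). It passed under 2 of the 11 alternatives, with total counts in place of TMM factors (0.47, edgeR adjusted p = 0.0143) and with only genes of at least 10 counts in every library (0.33, edgeR adjusted p = 0.0486).

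XIAP encodes the inhibitor of caspase-9 and of the effector caspases (ENSG00000101966, chromosome X, 123859712 to 123913972, plus strand). Its level was 50.6 and 53.1 CPM with DMSO and 68.6 and 66.7 CPM with dBET1. Both treated libraries were above both controls. The mean went from 51.8 ± 1.81 to 67.6 ± 1.37 CPM (SD, n = 2 each), a log2 fold change of 0.38 (SE 0.0848, edgeR adjusted p = 0.00610). The call was lost, with a fold change about as large, without dBET1 replicate 1 (0.36, edgeR adjusted p = 0.0916) and without dBET1 replicate 2 (0.39, edgeR adjusted p = 0.0675), and with total counts in place of TMM factors the log2 fold change was 0.59. Per count of CASP9 the libraries held 2.59 and 2.82 counts of XIAP with DMSO and 2.81 and 3.09 with dBET1. The ranges overlapped, and the ratio was 1.09 times higher with dBET1 (exact two-sided permutation p = 0.667, with 0.333 the smallest possible).

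**Figure D3:**
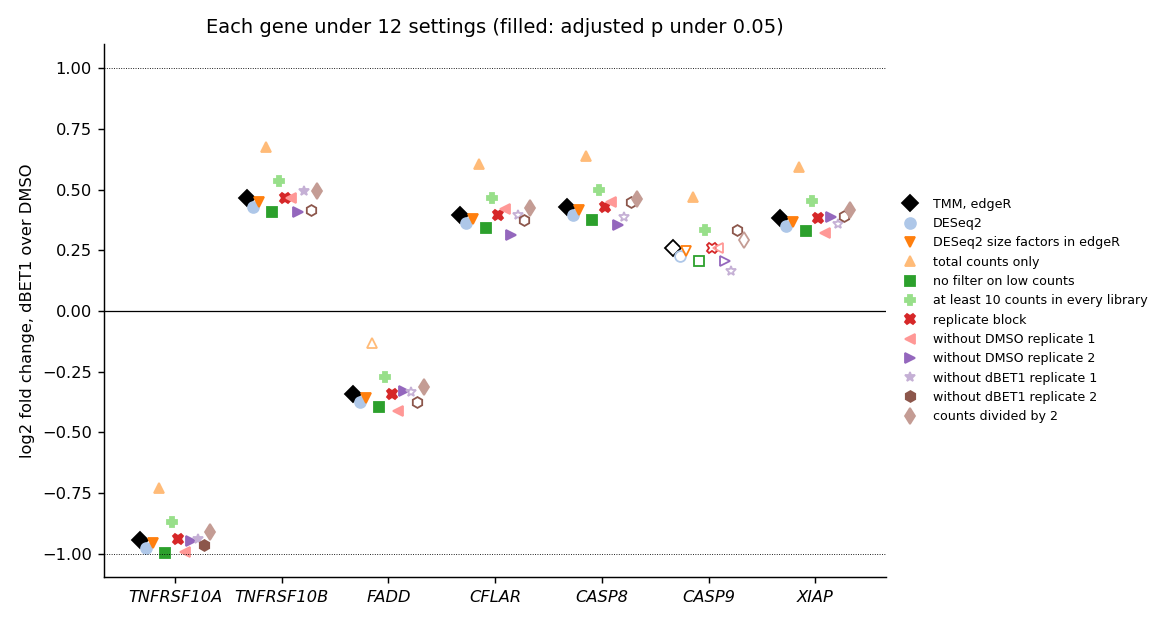
Log2 fold change (vertical axis, dBET1 over DMSO) of the 7 genes tested under 12 settings of the comparison, filled where the adjusted p was under 0.05. TNFRSF10A is filled in all 12, FADD, CFLAR, CASP8 and XIAP are open without either dBET1 library, TNFRSF10B is open without dBET1 replicate 2, and no point passes a log2 fold change of 1 in either direction.

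Levels of different genes were compared per length, as CPM per kb of all annotated exons of the gene. With DMSO the order was FADD (27.9 ± 1.22 CPM per kb; SD, n = 2), TNFRSF10A (21.7), TNFRSF10B (11.1), XIAP (5.44), CFLAR (3.93), CASP8 (3.85), CASP9 (3.65) and FAS (0.00209). With dBET1 the TRAIL receptor genes changed places: FADD (22.0) was followed by TNFRSF10B (15.3), TNFRSF10A (11.3), XIAP (7.10), CASP8 (5.19), CFLAR (5.18), CASP9 (4.37) and FAS (0.00792). In both groups CFLAR and CASP8 were the only neighbours in the order whose ranges over the 2 libraries overlapped. On this scale the adaptor and the TRAIL receptors had the highest levels in both conditions. The place of the caspase genes and of CFLAR and XIAP depended on the length used, because CFLAR has 22.5 kb of annotated exons and CASP8 7.24 kb, but their canonical transcripts span 14.6 and 2.66 kb. Per kb of the canonical transcript, a length added after the values were seen, CASP8 stood at 10.5 CPM per kb with DMSO and CFLAR at 6.05. On that scale CASP8 reached 14.1 CPM per kb with dBET1, above TNFRSF10A at 12.3.

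**Figure D4:**
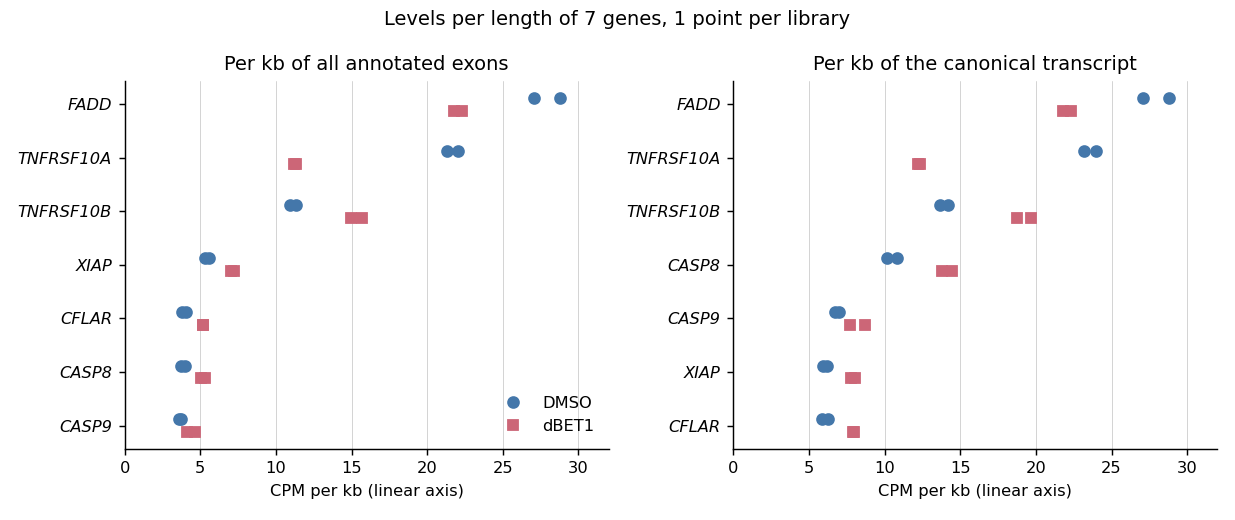
CPM per kb (horizontal axes, linear) of the 7 genes other than FAS, 1 point per library (DMSO circles, dBET1 squares), per kb of all annotated exons (left) and of the canonical transcript (right). On the left the circles of TNFRSF10A lie between 21.3 and 22.0, above the 10.9 to 11.3 of TNFRSF10B, while the squares lie in the reverse order.

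The other genes of the pathway were taken from a list of 41, of which 28 were tested: 11 were higher, 8 were lower and 9 did not pass (edgeR adjusted p under 0.05), beside 28.0% of all genes higher and 27.6% lower. Their median log2 fold change was 0.058 beside 0.048 for all genes, and it lay between -0.05 (DESeq2) and 0.27 (total counts only) over the alternatives, so that its sign depended on the setting. Without DMSO replicate 1 it was 0.14, without DMSO replicate 2 it was 0.17, without dBET1 replicate 1 it was 0.12 and without dBET1 replicate 2 it was -0.02. Of the 28, 7 higher genes and 1 lower gene also passed the limit on the fold change, beside 16.9% and 8.54% of all genes, and 0 of the 7 genes above did. Among the 7 higher ones, TNFRSF25, BIRC3 and SEPTIN4 had at most 9 counts in a DMSO library, so they passed the filter on low counts through the dBET1 libraries. The other 13 genes had at most 13 counts in any library, among them the decoy receptor genes, including TNFRSF10C (3, 2, 9 and 13 counts), and the necroptosis genes RIPK3 and MLKL. The decoy receptor gene TNFRSF6B had 3, 4, 1 and 3 counts and shares 1140 exon bases with RTEL1-TNFRSF6B on the same strand, which had 1276, 1396, 804 and 1006 counts, so its reads may have been assigned to either gene.

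**Figure D5:**
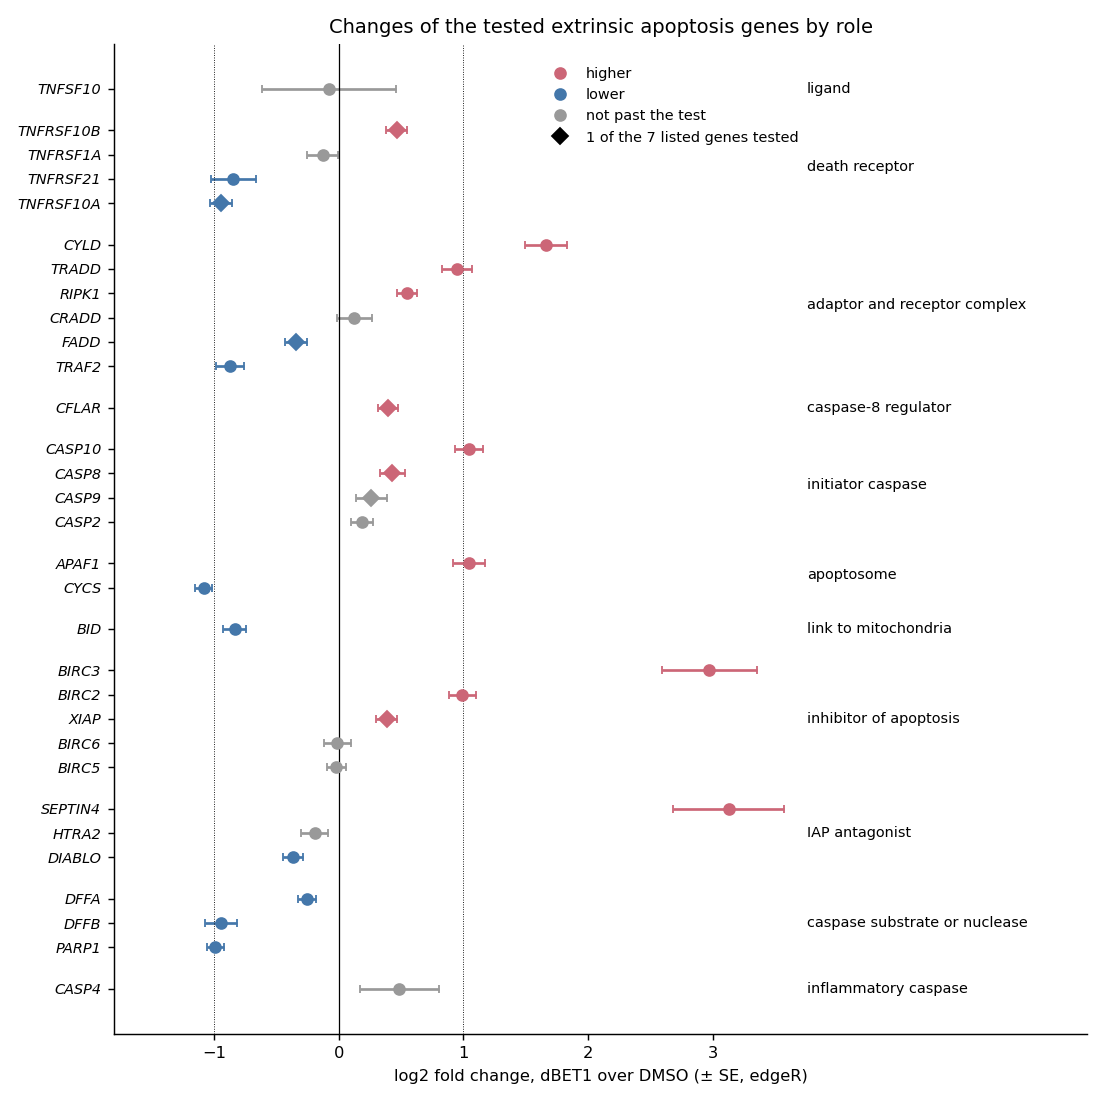
Log2 fold change with its SE (horizontal axis, dBET1 over DMSO, edgeR) of the tested pathway genes grouped by role, diamonds for the genes described above and circles for the others, red for higher, blue for lower and grey for not past the test, without TNFRSF25, which had 0 counts with DMSO, and without the effector caspases. The diamonds lie between -0.94 and 0.46, inside the spread of the circles, which runs from -1.08 (CYCS) to 3.12 (SEPTIN4).

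Beside the TRAIL receptors, the death receptor gene TNFRSF21 (DR6) also fell, with a log2 fold change of -0.85 (edgeR adjusted p = 0.00514), and TNFRSF1A, a receptor of TNF, was at -0.13 (edgeR adjusted p = 0.403) and at 0.08 with total counts in place of TMM factors. TNFRSF25 (DR3) had 0 counts in both DMSO libraries and 12 and 20 with dBET1, at least 5.31-fold higher when set against 3 counts per library. Its exons share 383 bases with ESPN on the other strand, which had 78, 76, 405 and 430 counts. In the receptor complexes, FADD was not alone in being lower. TRAF2, an adaptor of TNF receptor signalling, fell (log2 fold change -0.87, edgeR adjusted p = 0.000450). TRADD, RIPK1 and the deubiquitinase gene CYLD rose (0.95, 0.55 and 1.66), and CRADD was at 0.13 (edgeR adjusted p = 0.477), or at -0.06 without DMSO replicate 1.

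CASP8 rose less than the gene between it and CFLAR on chromosome 2, CASP10, which encodes the other initiator caspase of death receptors. CASP10 went from 17.7 ± 1.59 to 36.5 ± 0.122 CPM (SD, n = 2 each), a log2 fold change of 1.04 (edgeR adjusted p = 0.000204), beside 0.43 for CASP8; this difference between genes was not tested. CASP2 was at 0.19 and, as for CASP9, did not pass (edgeR adjusted p = 0.104), but did with total counts in place of TMM factors (0.40, edgeR adjusted p = 0.00675) and with at least 10 counts in every library (0.26, edgeR adjusted p = 0.0376). The partners of caspase-9 in the apoptosome moved in opposite directions. APAF1, its scaffold, rose by a log2 fold change of 1.04 (edgeR adjusted p = 0.000338), while CYCS, which encodes cytochrome c, fell by 1.08 on the log2 scale (edgeR adjusted p = 2.1e-05). BID, the substrate through which caspase-8 reaches the mitochondria, fell from 46.6 ± 0.628 to 26.1 ± 0.174 CPM (SD, n = 2 each), a log2 fold change of -0.83 (edgeR adjusted p = 0.000227).

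Of the inhibitor of apoptosis genes, XIAP rose together with BIRC2 and BIRC3 (cIAP1 and cIAP2), which ubiquitinate RIPK1 at TNF receptors. BIRC2 had a log2 fold change of 0.99 (edgeR adjusted p = 0.000208), and BIRC3 one of 2.97 (edgeR adjusted p = 0.000421) from 8 and 9 counts with DMSO to 68 and 67 with dBET1. BIRC5 and BIRC6 were at -0.02 and -0.01 and did not pass (edgeR adjusted p = 0.868 and 0.948), and their sign depended on the setting. BIRC6 was at 0.14 without DMSO replicate 1 (edgeR adjusted p = 0.0689) and lower, at -0.20, without DMSO replicate 2 (edgeR adjusted p = 0.0143). Among the antagonists of XIAP, DIABLO fell (-0.37, edgeR adjusted p = 0.00599), HTRA2 was at -0.19 (edgeR adjusted p = 0.155; -0.36 and 0.00120 without DMSO replicate 1, and 0.02 and 0.891 with total counts in place of TMM factors), and SEPTIN4, whose short form ARTS binds XIAP, rose from 5 and 5 counts to 45 and 44 (3.12, edgeR adjusted p = 0.000765). DIABLO shares 970 exon bases with B3GNT4 on the other strand, which had 49, 52, 386 and 560 counts.

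The 3 genes of the last step fell: PARP1, a substrate of caspases, by 0.99, DFFA, the inhibitor that caspases cleave to free the nuclease, by 0.26, and DFFB, the nuclease itself, by 0.94 on the log2 scale. The call of DFFA was lost with at least 10 counts in every library (-0.18, edgeR adjusted p = 0.0629). With total counts in place of TMM factors, DFFA and DIABLO, like FADD, no longer passed (-0.04 and -0.16, edgeR adjusted p = 0.637 and 0.147). Without either dBET1 library the same held for both genes (edgeR adjusted p between 0.0731 and 0.214).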

How the data were processed

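The authors aligned filtered paired-end reads to hg38 with HISAT2 2.2.0 and estimated abundances with StringTie. They deposited whole-number counts per Ensembl gene, not normalized. The step from abundances to counts and its strand setting are not given in the sources used here. Control columns bear another name than the DMSO labels and were assigned as the only other group. Gene symbols, coordinates and exon lengths came from GENCODE release 44 (56105 of 64252 identifiers matched; the others held 2.57% of the counts), and 1-based windows before transcription starts came from RefSeq. Of the 8 genes, 6 were matched to windows used here.

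The filter filterByExpr left 17971 genes. TMM factors scaled the libraries, and dBET1 and DMSO were compared in edgeR 4.0.16 (limma 3.58.1, R 4.3.3) by its quasi-likelihood test, group being the only term. P-values were adjusted by the method of Benjamini and Hochberg. The SE is the absolute log2 fold change divided by the square root of F. CPM are counts scaled by the TMM-normalized library size. Annotation steps used Python 3.11.15. Only the main edgeR comparison was tested on simulated counts, drawn with the common dispersion of all genes. It called 24 of 198 genes changed by 0.5 on the log2 scale, and 180 of 201 changed by 1. Replicates differed beyond counting error (chi-square per degree of freedom 23.6 for DMSO and 8.14 for dBET1).

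The 8 genes and the pathway and marker lists were chosen with earlier results of these data known. Named are these 8, pathway genes needed to describe a role, and the 3 genes most like the one with the smallest p. Others were chosen after their values were seen. The alternatives comprised the test of DESeq2 1.42.0, edgeR with size factors from DESeq2, scaling by total counts only, no filter, at least 10 counts in every library, a replicate block, each library left out in turn, counts divided by 2, and other gene lengths. Results of single genes of the effector caspase role are not reported here, though these genes count in the totals of the pathway list.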

Additional observations from a re-analysis of the deposited data

How the results depend on the processing

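No log2 fold change of the 7 genes tested reversed under any of the 11 alternatives. With DMSO and dBET1 libraries left out in turn, the number of the 7 genes that were higher ranged from 0 (without dBET1 replicate 2) to 4, with 1 without dBET1 replicate 1, and the number lower from 1 (without either dBET1 library) to 2. Leaving out a library leaves 1 in its group, assumed to vary like the other group. Over all genes, 3356 (without dBET1 replicate 2) to 5118 were higher. With total counts only, 5 of the 7 genes were higher and 1 was lower, and 6703 genes were higher and 3573 lower in place of 5038 and 4953, while the median log2 fold change went from 0.048 to 0.26 over all genes and from 0.38 to 0.59 over the 7. With no filter, 3459 of the 33380 genes tested were higher and 4350 lower. With at least 10 counts in every library 5 of the 7 genes were higher and 2 lower, beside 4320 higher and 4424 lower of all 15250 genes tested. Past both thresholds, 3032 genes were higher and 1535 lower, with DESeq2 2221 and 1514, and with at least 10 counts in every library 1940 and 1195. With the replicate block, 4 of the 7 genes were higher and 2 lower, and 4976 genes were higher and 4897 lower over all. Deviations of same-numbered libraries had a correlation of -0.0075 over genes. This value cannot tell whether same-numbered libraries were prepared together, which the labels do not say.

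Ranks of level with DMSO moved with the length used: per kb of the longest transcript CASP8 was at rank 4 and XIAP at rank 6, and per kb of the canonical transcript CASP8 was at rank 4, CASP9 at rank 5, XIAP at rank 6 and CFLAR at rank 7. The cause of the other changes was not tested. With 2 libraries per group, SDs rest on 2 values, and depth limits FAS, TNFRSF25 and the ligand genes.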

Other observations

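The genes next to the described genes on the genome were also read, for 3 clusters within 250 kb of their ends, chosen after the values were seen. Around CFLAR, CASP10 and CASP8, which lie on the same strand of chromosome 2 with gaps of 6.19 and 4.02 kb, 16 genes were tested, of which 8 were higher, 5 were lower and 3 did not pass (edgeR adjusted p under 0.05), where 28.0% of all genes tested were higher and 27.6% lower. The clusters were not tested against these shares, and their counts include the described genes. All 5 lower genes lay before CFLAR in coordinate order: PPIL3, NIF3L1, ORC2, HYCC2 and NDUFB3, with log2 fold changes between -0.84 (NDUFB3) and -0.31 (NIF3L1). On the same side, the RNA genes Metazoa_SRP (3.88, edgeR adjusted p = 0.00782) and ENSG00000232719 (3.67, edgeR adjusted p = 0.000275) were higher. ENSG00000183308, also there, did not pass (0.65, edgeR adjusted p = 0.332). FLACC1, which lies inside the span of CASP8 on the other strand, had a log2 fold change of 3.98 (edgeR adjusted p = 0.000231), while CASP8 had one of 0.43.

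TNFRSF10B and TNFRSF10A lie 121 kb apart on the same strand of chromosome 8. With these genes included, 12 genes were tested around them, of which 5 were higher, 2 were lower and 5 did not pass. Over all genes tested, 28.0% were higher and 27.6% lower. Near TNFRSF10B, CHILL1, an RNA gene just upstream of it, had a log2 fold change of 2.69 (edgeR adjusted p = 0.00298), and RHOBTB2 had one of 0.46 (edgeR adjusted p = 0.0354). Next to TNFRSF10A, TNFRSF10A-DT was lower (-0.67, edgeR adjusted p = 0.00976), TNFRSF10A-AS1 (-0.79, edgeR adjusted p = 0.114) and CHMP7 (-0.21, edgeR adjusted p = 0.0634) did not pass, and ENTPD4, farther on the same side, was higher (0.68, edgeR adjusted p = 0.00105). Around BIRC3 and BIRC2 on chromosome 11, 4 genes were tested, and 3 were higher, beside the same shares. The 3 were BIRC3 and BIRC2 themselves and the RNA gene TMEM123-DT (2.83, edgeR adjusted p = 0.0353). TMEM123 did not pass (0.00, edgeR adjusted p = 0.980).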
